A study of Mus musculus with 3 samples.

Results

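The genes described here are 41 members of the cell's protein-folding and stress programmes: 23 that serve the endoplasmic reticulum (ER), 7 of the ATF4 pathway of the integrated stress response, 9 of the cytosolic heat shock system and 2 that form the mitochondrial chaperonin. They were chosen by gene symbol from the GENCODE M21 annotation. The rule holds no measured value, but the choice was made with earlier results of these data known. All 41 were found among the 55536 genes listed. They were measured in 1 group of 3 libraries (libraries 1, 2 and 3, numbered as the biological replicates) of ribosome-depleted total RNA. The RNA came from the cytosol of bone marrow-derived macrophages, primary cells of C57BL/6J mice grown from marrow in culture, after 50 min with lipid A at 100 ng/ml. Lipid A is the part of bacterial lipopolysaccharide that binds Toll-like receptor 4. The labels give no age or sex, share 1 donor label among the libraries, and do not state whether each library had its own animal or culture. The p-values below therefore speak of the spread between these 3 libraries alone, which may be technical. Unstimulated cells were not analysed here, so that levels in stimulated cells are given and no change upon stimulation. The labels call the fraction both cytosolic and cytoplasmic. Whether ER membranes, on which mRNAs of secreted and ER proteins are translated, stayed with it is not given in the sources used here.

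Gene expected counts, the authors' estimates of reads per gene, summed to between 33044910 and 36769402 a library. Levels are given in TPM, the deposited transcript abundance, which is corrected for length and scaled to the same total in each library, and so is a share of all its RNA. Protein-coding genes held 38.4%, 26.6% and 34.8% of TPM in libraries 1, 2 and 3, with the rest on other RNA classes, and the median detected gene was lower in library 2 than in library 1 by 0.48 on the log2 TPM scale. For that reason TPM is used here to compare genes, and log2 CPM (counts scaled to library size with the trimmed mean of M values) to compare libraries. All 8 macrophage markers were detected, where detected means at least 1 TPM in every library. No marker of T cells, B cells, erythroid cells, stromal cells, dendritic cells or mast cells was, and of the 5 neutrophil and progenitor markers only S100a8 and S100a9 were. In such bulk RNA, fewer cells of a type and less RNA per cell cannot be told apart.

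Proteins that enter the ER are folded by the Hsp70 chaperone BiP, by the Hsp90 chaperone Grp94, by the lectins calnexin and calreticulin and by protein disulfide isomerases. When unfolded proteins build up there, the sensors IRE1, ATF6 and PERK start the unfolded protein response. IRE1 removes a short intron from Xbp1 mRNA so that it encodes an active transcription factor. PERK phosphorylates the initiation factor eIF2, which lowers general translation but raises that of ATF4, and other eIF2 kinases feed the same integrated stress response. The cytosol has its own chaperones, of which some are always made and others are induced through the transcription factor HSF1. In macrophages these programmes attend the large output of secreted proteins that follows Toll-like receptor activation.

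Of the 41 genes, 39 were detected, and 7 reached 100 TPM in every library. The median member stood at 29.9 TPM, against 9.19 TPM for the 9570 detected genes of the whole series. The highest mean was that of Ppp1r15a, which encodes GADD34, the subunit that directs phosphatase 1 to eIF2 and so restores translation. Second was Hspa8, the constitutive cytosolic Hsp70 (Hsc70), and these 2 changed places in a second quantification that the authors deposited for each library (178 TPM for Ppp1r15a and 224 TPM for Hspa8) and without library 1 (509 and 526 TPM). Next came the ER genes Hspa5 and Calr, then Hsp90ab1, Hsp90b1 and Canx. The lowest were Chac1 and Trib3, targets of the ATF4 pathway, which fell under 1 TPM in each library. Of the 820 pairs of members, 790 stood in the same order in every library, but of the 40 pairs next to each other in the order of means only 20 did, so close ranks are not separated by these data.

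**Figure D1:**
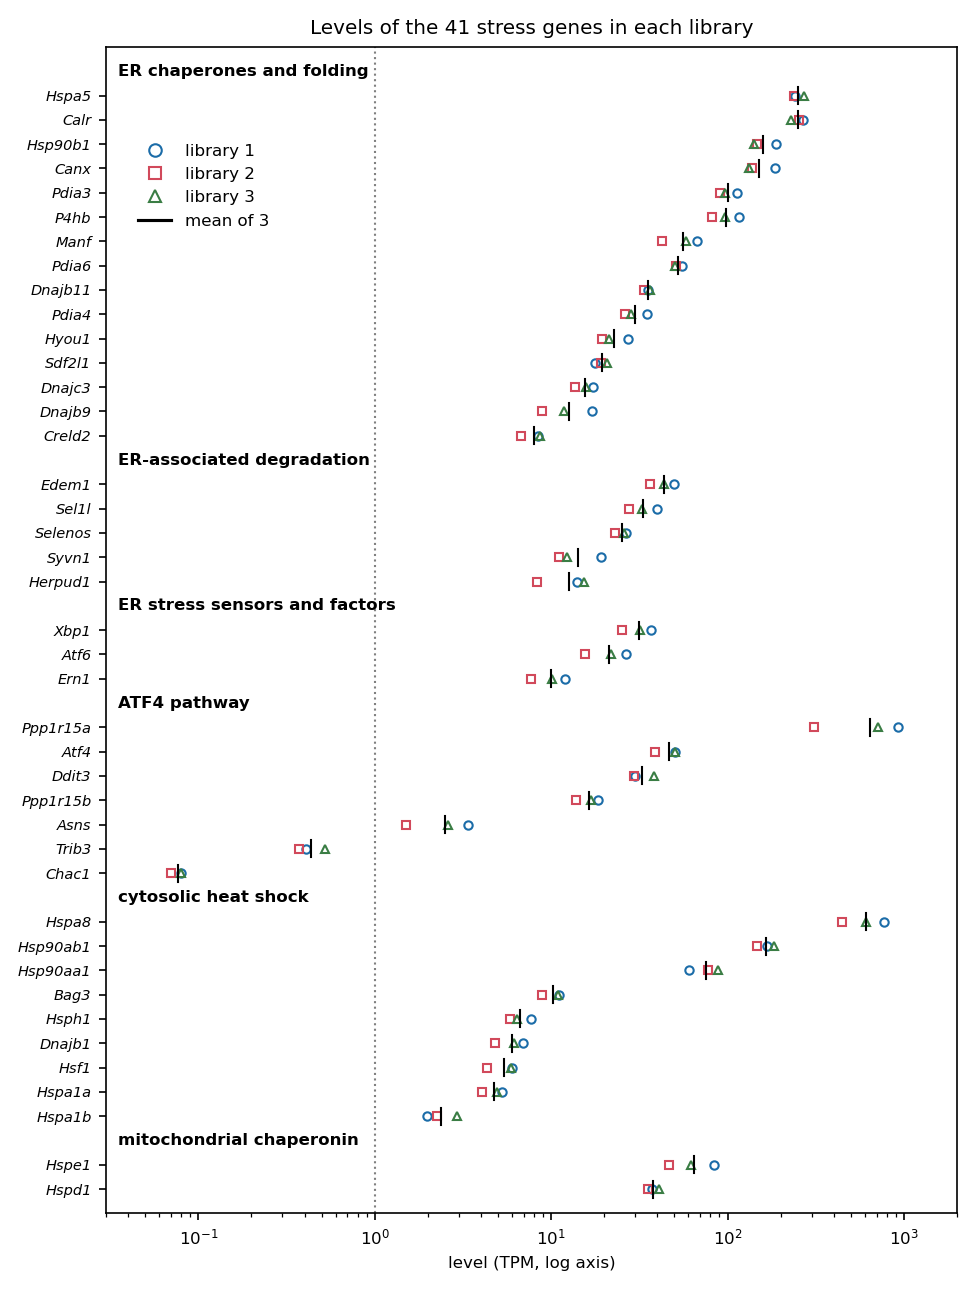
Level of each of the 41 genes in TPM on a log axis, by group; symbols are libraries 1, 2 and 3, short vertical lines are means of the 3 libraries, and the dotted line is the detection level of 1 TPM. The ATF4 pathway runs from Chac1 near 0.08 TPM to Ppp1r15a at 646 TPM, the 23 ER genes stay between 7.95 and 249.6 TPM, and most cytosolic heat shock genes lie near or below 10.3 TPM.

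The ER, ATF4 and cytosolic heat shock genes differed in their typical level and in how widely their members were spread. The median member stood at 31.3 TPM for the ER genes, 16.4 TPM for the ATF4 pathway and 6.65 TPM for the cytosolic heat shock genes. As differences of medians of log2(TPM + 1), the ER genes exceeded the heat shock genes by 2.07, 1.99 and 2.15 in libraries 1, 2 and 3 (mean 2.07 ± 0.08, SD, n = 3). The ER genes exceeded the ATF4 pathway by 0.92, 0.88 and 0.89 (0.89 ± 0.02), and the ATF4 pathway exceeded the heat shock genes by 1.16, 1.11 and 1.27 (1.18 ± 0.08). Each difference had the same sign in 3 of 3 libraries, and a sign-flip test over 3 libraries cannot go below an exact two-sided p of 0.25. The place of the ATF4 pathway rested on which of its 7 genes were counted. Without Trib3 and Chac1 the ER genes no longer exceeded it (-0.06 ± 0.27). Without Ppp1r15a, an alternative chosen after seeing the data, the ER genes exceeded it by 2.06, and it exceeded the heat shock genes by only 0.01.

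Summed over members, the ER genes held 1616, 1324 and 1410 TPM in libraries 1, 2 and 3. The 7 ATF4 pathway genes held 1024, 394 and 818 TPM, and the 9 cytosolic heat shock genes held 1039, 699.9 and 917 TPM. As a share of protein-coding TPM, which does not move with the noncoding share, these came to 0.442% ± 0.049, 0.217% ± 0.062 and 0.266% ± 0.0045 (SD, n = 3). The heat shock share was thus the steadiest of these sums, and the ATF4 share, most of it from Ppp1r15a, the least steady. All 41 genes together held 0.955% ± 0.032 of protein-coding TPM.

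The sensors were expressed at moderate levels and below the leading ER chaperones. Ern1, which encodes IRE1, had 12.0, 7.70 and 10.1 TPM in libraries 1, 2 and 3, the lowest level of the sensors and factors. Atf6, a membrane-bound transcription factor that is cleaved in the Golgi upon ER stress, had 26.6, 15.6 and 21.9 TPM. Xbp1 had 36.8, 25.2 and 32.1 TPM, the highest of the 3. All of them were lowest in library 2 on this scale, as was the median detected gene. In the second quantification library 3 was the lowest instead, with Ern1 at 5.70, 3.24 and 2.41 TPM, Atf6 at 11.6, 5.61 and 4.85, and Xbp1 at 15.9, 9.28 and 7.07. In log2 CPM Ern1 had 6.42, 6.22 and 6.35, Atf6 7.90, 7.59 and 7.68, and Xbp1 6.47, 6.38 and 6.36, and none of them was called in the test of variation below. Eif2ak3, which encodes PERK and is given here as the remaining ER sensor outside the fixed choice of named genes, had 3.96, 2.68 and 3.82 TPM.

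The level of Xbp1 does not tell how much of its mRNA IRE1 had processed, because the annotation holds no transcript in which the sequences beside the IRE1 intron are joined. The stretch is shown for this reason: it lies in exon 4 of Xbp1-201, in coding sequence (mm10, chr11:5524249-5524334, plus strand), and the capitals mark the 26 bases that lie between the cleavage points of the paired loops CNGCAGC.
Xbp1 exon 4: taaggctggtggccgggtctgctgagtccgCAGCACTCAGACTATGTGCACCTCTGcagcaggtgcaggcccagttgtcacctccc
Of the 4 annotated Xbp1 transcripts, 3 contain these bases with their flanks and 0 contain the joined flanks. Xbp1-201 took 98.5%, 96.9% and 98.9% of the gene's transcript TPM. With no transcript for the processed form, unprocessed and processed Xbp1 are not separated in these tables.

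All 15 genes of ER chaperones and folding were detected, with a median of 52.3 TPM, and 4 of them reached 100 TPM in each library. Hspa5, which encodes BiP, had 241, 237 and 270 TPM (249.6 ± 18.1, SD, n = 3; mm10 chromosome 2, 34771970 to 34777547, plus strand). Calr, the soluble lectin chaperone calreticulin, had 267, 253 and 228 TPM (249.4 ± 20.1). The levels of Hspa5 and Calr overlapped and cannot be ranked. Hsp90b1, which encodes Grp94, had 189, 147 and 141 TPM, and Canx, the membrane-bound lectin chaperone calnexin, had 185, 138 and 133 TPM. Library 1 was the highest for both in TPM, but by log2 CPM library 2 was for Hsp90b1 (9.30, 9.40 and 8.94), and Canx was nearly level in libraries 1 and 2 (9.57, 9.53 and 9.27).

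The disulfide isomerases spanned a range of means from 29.9 TPM to 100.3 TPM. Pdia3, which works with the lectin chaperones, averaged 100.3 TPM and P4hb, the founding isomerase, 97.8 TPM. Pdia6 averaged 52.3 TPM and Pdia4 29.9 TPM. Manf, a secreted protein that binds BiP, averaged 55.7 TPM (42.5 to 66.9). The BiP co-chaperones of the J-domain family were lower than BiP itself: Dnajb11 averaged 35.2 TPM, Dnajc3 15.6 TPM and Dnajb9 12.6 TPM. Hyou1, an exchange factor for BiP, averaged 22.6 TPM, and Sdf2l1, which works with Dnajb11, 19.3 TPM. The lowest was Creld2, a disulfide isomerase-like protein induced by ER stress, with 8.45, 6.75 and 8.66 TPM.

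Many of these genes carry the ER stress element, the promoter motif read by ATF6 together with the factor NF-Y. It was searched as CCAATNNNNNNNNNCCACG on both strands in RefSeq promoter windows (GRCm38.p6) of 250 bases before to 50 after each start, and 33 of the 41 genes had a window. Those without were Atf6, Manf, Hyou1, Ppp1r15b, Hsf1, Hspa8, Hsp90aa1 and Hsp90ab1. The motif stood in the windows of 8 genes, all of them ER genes (8 of the 20 ER genes with a window), against 39 of all 32851 windows (0.119%). Here and for the motifs below, members are counted by gene, the 33 genes having 36 windows, and all promoters by window. Because the members were chosen as genes of the ER and stress programmes, these counts are a description and no test of the motif. The sites are shown to let their shared ends and free middle be compared, each turned so that the motif, in capitals, reads as spelled.
Hspa5 (chr2:34772020-34772048, plus strand): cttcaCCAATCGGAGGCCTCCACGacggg
Calr (chr8:84847070-84847098, plus strand): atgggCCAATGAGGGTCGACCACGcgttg
Hsp90b1, site nearer the start (chr10:86705528-86705556, plus strand): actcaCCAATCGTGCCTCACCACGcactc
Hsp90b1, farther site (chr10:86705633-86705661, minus strand): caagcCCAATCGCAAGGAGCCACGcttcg
Canx (chr11:50325795-50325823, minus strand): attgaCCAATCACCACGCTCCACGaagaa
Pdia6 (chr12:17266486-17266514, plus strand): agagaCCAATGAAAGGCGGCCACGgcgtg
Dnajc3 (chr14:118937822-118937850, plus strand): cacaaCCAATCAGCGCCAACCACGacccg
Creld2 (chr15:88819515-88819543, minus strand): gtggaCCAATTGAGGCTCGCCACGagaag
Syvn1 (chr19:6046527-6046555, plus strand): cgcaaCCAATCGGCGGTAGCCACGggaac
The 4 ER genes that reached 100 TPM in every library, Hspa5, Calr, Hsp90b1 and Canx, were all among the 8, and none of the 12 ER genes whose windows lacked the motif reached that level. The 8 genes had a median of 102.0 TPM and ran from Creld2 to Hspa5, while the 12 others had a median of 30.6 TPM and reached 100.3 TPM with Pdia3. This contrast was chosen after the values were seen, the ranges overlap, and a match is a description of letters, not of binding.

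The 5 genes of ER-associated degradation, which returns misfolded proteins to the cytosol for destruction, were all detected, with a median of 25.2 TPM. The highest was Edem1, a lectin that picks out misfolded glycoproteins, with 50.1, 36.6 and 43.7 TPM. Sel1l, the partner of the ubiquitin ligase Hrd1, averaged 33.3 TPM (27.7 to 39.6). Syvn1, which encodes Hrd1 itself, was lower at 14.2 TPM (11.0 to 19.1). Selenos, a membrane selenoprotein of this complex, averaged 25.2 TPM. The lowest was Herpud1, a membrane protein that links the complex to the proteasome, with 14.0, 8.33 and 15.4 TPM. The window of Herpud1 held the shorter ER stress element II, searched as ATTGGNCCACG on both strands, which 12 of all 32851 windows held (0.0365%), and so did that of Dnajb11.
Herpud1 (chr8:94386368-94386396, plus strand): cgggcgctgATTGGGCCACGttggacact
Dnajb11 (chr16:22857843-22857871, plus strand): ccggcggcgATTGGCCCACGcctggctgc

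The ATF4 pathway held the member with the highest mean TPM in the first quantification, ahead of Hspa8, and the lowest member. Atf4, the transcription factor whose translation rises when eIF2 is phosphorylated, had 50.6, 38.9 and 50.2 TPM (46.6 ± 6.64, SD, n = 3). Ddit3, which encodes the factor CHOP, had 29.97, 29.69 and 38.52 TPM. A second identifier with the symbol Ddit3 overlaps this gene and had 0 counts in each library, so the value given is that of the main gene. Both factor genes were thus well above the median detected gene in each library.

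Ppp1r15a had 920.7, 309.8 and 708.9 TPM in libraries 1, 2 and 3 (646 ± 310, SD, n = 3; chromosome 7, 45522916 to 45526268, minus strand). Library 2 had the lowest value, and its Ppp1r15a was below its Hspa8, while Ppp1r15a was above Hspa8 in the other libraries. Averaged over the libraries, it exceeded 99.2% of detected genes. Ppp1r15b, which encodes CReP, the constitutive counterpart of GADD34, had only 18.4, 13.8 and 16.9 TPM. The Ppp1r15a level was 36.2-fold that of Ppp1r15b as a geometric mean over libraries.

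Of the other ATF4 pathway genes, 3 were among the lowest members. Asns, which makes asparagine, had 3.39, 1.51 and 2.59 TPM, Trib3, a pseudokinase that restrains ATF4 and CHOP, had 0.410, 0.370 and 0.520 TPM, and Chac1, which degrades glutathione, had 0.0800, 0.0700 and 0.0800 TPM. Chac1 rested on 5, 6 and 6 expected counts and Trib3 on 29, 42 and 47, so both were above the limit of 3 counts that an absence would allow, 0.0816 to 0.0908 CPM at these depths. The deposited interval bounds for Trib3 ran from 0.341 to 1.04 TPM in library 1, with a level not given in the sources used here. Transcripts of Asns, Trib3 and Chac1 together summed to 3.88, 1.95 and 3.19 TPM, far below Ppp1r15a alone in every library.

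The promoters of these genes were searched for the amino acid response element, bound by ATF4 with C/EBP partners, as TGATGNAA on both strands. The windows of Asns, Trib3, Chac1 and Herpud1 held it, as did 3.97% of all windows, and none of the other members with a window did. The window of Ppp1r15a held instead the cyclic AMP response element TGACGTCA, which stood in 1.79% of all windows and in no other member's. The sites are printed to set these 3 low genes beside Ppp1r15a, with the motif in capitals and read as spelled.
Asns (chr6:7693214-7693243, minus strand): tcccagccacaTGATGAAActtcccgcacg
Trib3 (chr2:152344028-152344057, plus strand): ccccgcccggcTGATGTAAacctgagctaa
Chac1 (chr2:119351038-119351067, minus strand): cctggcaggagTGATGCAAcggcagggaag
Ppp1r15a (chr7:45526262-45526291, minus strand): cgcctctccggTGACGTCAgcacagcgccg
The site of Ppp1r15a ends 5 bases before the RefSeq start, that of Asns 16 bases and that of Chac1 186 bases before it, and that of Trib3 begins 14 bases after it. Nothing about the factors follows from these letters.

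Among the cytosolic heat shock genes, 2 constitutive chaperones held most of the RNA. Hspa8 had 772, 445 and 607 TPM (608 ± 163, SD, n = 3; chromosome 9, 40800984 to 40810087, plus strand). Hsp90ab1, the constitutive Hsp90, had 168, 147 and 184 TPM and Hsp90aa1, its inducible paralog, averaged 75.6 TPM (60.6 to 88.5). Hspa8 and Hsp90ab1 together summed to 940, 592 and 791 TPM. By contrast Hspa1a, Hspa1b, Dnajb1, Hsph1 and Bag3, which heat shock induces, together summed to 33.1, 25.8 and 31.3 TPM. These subgroups were set up after the values were seen. They leave out the inducible Hsp90aa1, which at 60.6, 77.7 and 88.5 TPM exceeded the latter sum in each library.

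The inducible Hsp70 genes were among the lowest members. Hspa1a had 5.25, 4.08 and 4.92 TPM and Hspa1b 1.99, 2.25 and 2.93 TPM. Dnajb1, the J-domain partner of cytosolic Hsp70, averaged 5.98 TPM (4.83 to 6.96), and Hsph1, an exchange factor of the Hsp110 family, 6.65 TPM (5.82 to 7.70). Bag3, a co-chaperone that steers clients to autophagy, averaged 10.3 TPM (8.83 to 11.2). Hsf1, the factor that drives these genes, had 6.04, 4.32 and 5.94 TPM. Averaged over the libraries, Hspa1b exceeded only 12.1% of detected genes and Hsf1 33.6%.

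Sequence shared with other genes makes some of these values uncertain. Of all 75-base windows in the annotated transcripts of Hspa1a, 61.7% also occur in transcripts of other genes on either strand, and 52.7% occur in Hspa1b. For Hspa1b the shared part was 55.8%, for Hsp90aa1 42.8%, for Hspa8 33.05% and for Hspd1 31.0%. Their reads may have been divided with paralogs or pseudogenes, and the sum of Hspa1a and Hspa1b is firmer than either value. For 28 of the 41 genes, Hspa5, Calr, Canx, Ppp1r15a, Atf4 and Xbp1 among them, no such window was shared.

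The chaperonin of the mitochondrial matrix was well expressed. Hspe1, which encodes the lid Hsp10, had 84.3, 46.9 and 62.5 TPM, and Hspd1, which encodes the barrel Hsp60, had 37.6, 35.4 and 40.6 TPM. Hspe1 was above Hspd1 in each library. These genes are divergent neighbours on chromosome 1 with a common promoter, and their windows overlap. The heat shock element, searched as GAANNTTCNNGAA on both strands, stood in the windows of Hspd1, Hspe1 and Hsph1 and in 0.603% of all windows. The site of the common promoter is shown once, since it belongs to both genes, and that of Hsph1 beside it, with the motif in capitals.
Hspd1 and Hspe1 (chr1:55088056-55088084, plus strand): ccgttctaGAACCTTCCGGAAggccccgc
Hsph1 (chr5:149636280-149636308, plus strand): actgaggaGAACTTTCCAGAAtctgcagc
A second, overlapping match lies in the same stretch of the common promoter on the other strand. Hspa1a, Hspa1b, Dnajb1 and Bag3 had no match in their windows, which says only that these letters are not there.

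Ratios between partner genes within a library do not move with the noncoding share, and all 10 pairs examined kept their direction in each library. Log2 ratios are of TPM. Hsp90b1 stood below Hspa5 by log2 ratios of -0.35, -0.69 and -0.94 (-0.66 ± 0.30, SD, n = 3), and Canx below Calr (-0.73 ± 0.18). In the cytosol Hsp90ab1 exceeded Hsp90aa1 (1.15 ± 0.29). Hspa8 exceeded its ER counterpart Hspa5 by 1.68, 0.91 and 1.17 (1.25 ± 0.39). The co-chaperone Dnajb9 stood far below Hspa5, by -4.36 ± 0.48, and Ppp1r15b further still below Ppp1r15a, by -5.18 ± 0.61. Ddit3 was under Atf4 (-0.51 ± 0.21), and so was Xbp1, whose ratio was the steadiest of the 10 (-0.58 ± 0.10). Hspd1 was under Hspe1 (-0.73 ± 0.39) and Hspa1b under Hspa1a (-1.002 ± 0.35), the latter a ratio of genes that share most of their sequence.

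**Figure D2:**
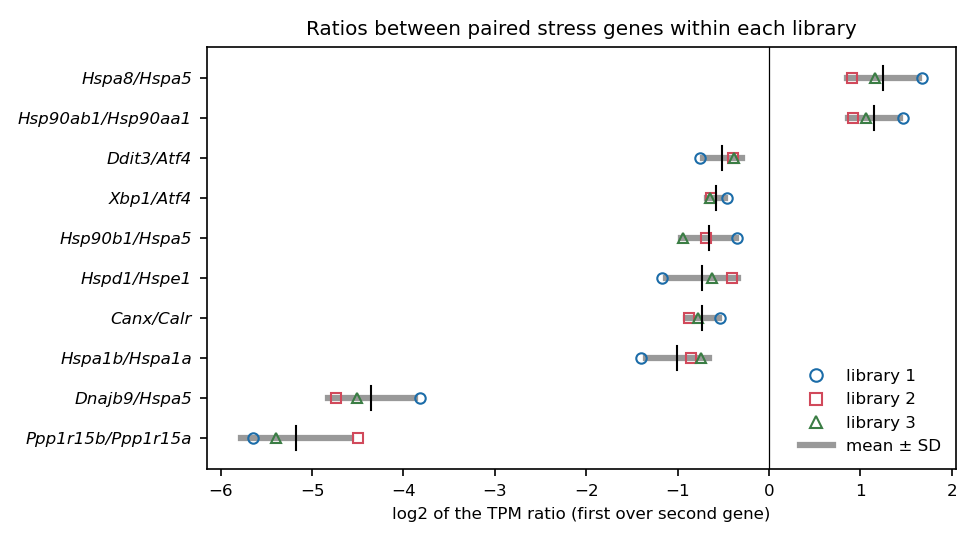
Log2 of the TPM ratio within each library for the 10 pairs of stress genes; symbols are libraries 1, 2 and 3, the black line is their mean and the grey bar the mean ± SD. Each pair stays on 1 side of 0 in every library, with Ppp1r15b under Ppp1r15a by 5.18 and Hspa8 over Hspa5 by 1.25 at the ends of the range.

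Variation between the libraries was tested on counts for every gene with edgeR, which asks whether a gene differs between the 3 libraries more than genes of its level do. Of the 40 members with enough counts, 0 were called at an adjusted p under 0.05, while 203 of all 12231 tested genes were (1.66%). At an unadjusted p under 0.05 there were 1 member and 785 genes. DESeq2's dispersion trend in the same test called 1 member. Chac1 had too few counts to be tested. On simulated counts the edgeR test called only 42 of 100 genes moved 2-fold in 1 library, so a gene not called may still differ. The median SD of log2 CPM over the 3 libraries was 0.154 for the tested members and 0.148 for all tested genes.

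The member nearest the threshold was Ppp1r15a, at 10.76, 9.62 and 10.27 log2 CPM in libraries 1, 2 and 3 and an adjusted p of 0.0542 by edgeR's goodness-of-fit test. Library 2 was its lowest and library 1 its highest. The call changed with the settings: the adjusted p was 0.0398 with no filter on low counts, 9.2e-05 with DESeq2's dispersion trend and 0.0253 without library 3, but 0.721 without library 1 and 0.9996 without library 2. Of 6 genes known to respond to lipid A, Tnf, Cxcl2, Nfkbia, Il1b, Zfp36 and Atf3, 5 were also lowest in library 2 by log2 CPM, as were 3903 of all 12231 tested genes, and 0 were called. Their TPM summed to 6889, 4068 and 6598. Whether Ppp1r15a and these genes differ for a common reason was not tested.

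Hspa8, whose TPM ran from 445 to 772, was even between libraries on the count scale, at 10.74, 10.63 and 10.70 log2 CPM. The other members with an SD above 0.25 were Hspa1b (2.72, 3.36 and 3.35 log2 CPM), Asns, Sdf2l1, Trib3, Herpud1, Dnajb9, Syvn1 and Ddit3, and none was called. Manf, Hsf1, Atf4, Dnajb1, Hspa8, Ppp1r15b and Xbp1 were the most even, with SDs from 0.0118 to 0.0596.

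Of the 15 ER chaperones and folding genes, 12 were highest in library 2 and 10 were lowest in library 3 by log2 CPM. Among all tested genes, 3813 of 12231 were highest in library 2 and 3644 lowest in library 3. The median deviation of the 15 genes from their own means was -0.01, 0.11 and -0.14 in libraries 1, 2 and 3. Hspa5 had 9.52, 9.81 and 9.52 log2 CPM, and Calr 9.24, 9.57 and 9.12. None of the 15 was called, and the genes of a library share their source. In a list of 8 noncoding RNAs, set up as a check on nuclear RNA, 6 could be tested. Of these, 5 were highest in library 2 and were called, with Malat1 at 11.06, 12.35 and 10.07 log2 CPM. The other, Gas5, was lowest in library 2, at 3.96, 3.94 and 4.43 log2 CPM, and was not called. Meg3 had 1, 0 and 0 expected counts. The TPM of the 8 summed to 727, 830 and 290 in libraries 1, 2 and 3. Their part in the ER chaperone values was not tested.

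**Figure D3:**
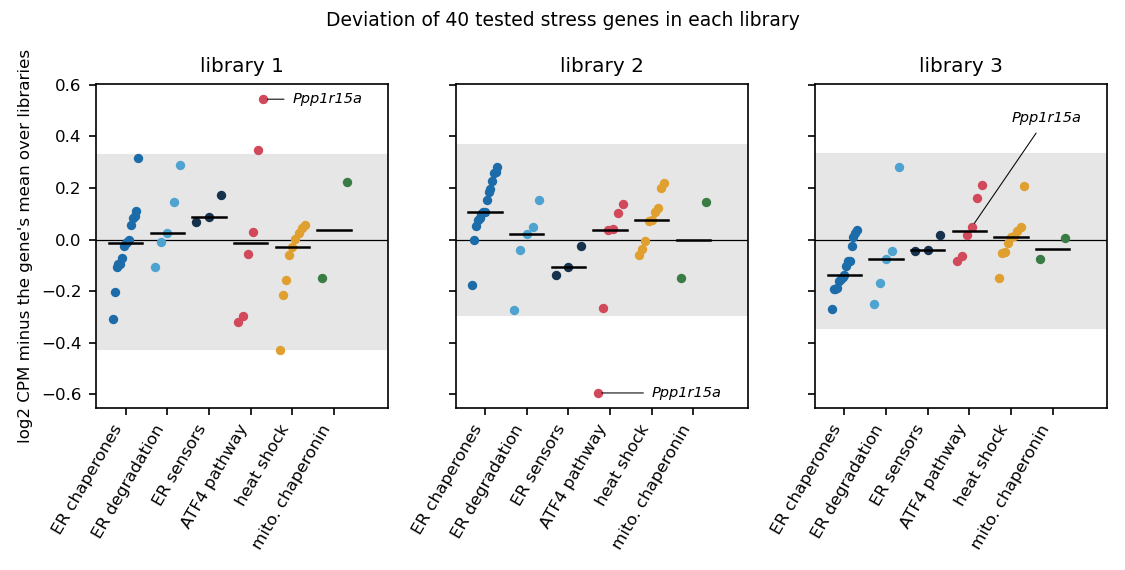
Log2 CPM of the 40 tested genes minus each gene's mean over the 3 libraries, by group, in libraries 1, 2 and 3; points are genes, black lines group medians, and grey bands run from the 5% to the 95% point of all 12231 tested genes. Ppp1r15a lies outside the band upward in library 1 and downward in library 2, and the ER chaperones lie mostly above 0 in library 2 and below 0 in library 3.

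The transcript tables show which annotated isoforms carried the levels. The members with over 10% of their TPM in a noncoding class were 4 of 23 for retained introns, 1 of 8 for nonsense-mediated decay and 3 of 13 for processed transcripts. Manf had 42.2%, 33.1% and 35.6% of its transcript TPM in a class annotated as retained intron (36.9% ± 4.7, SD, n = 3), and the authors' second quantification gave 38.0% ± 5.3. Hsph1 had 35.6%, 34.4% and 28.1% in that class, against 19.7% ± 6.9 in the second quantification. For Calr the share was 16.6% ± 4.3, against 29.6% ± 3.4. Hsp90aa1 had 0%, 26.2% and 26.1% in libraries 1, 2 and 3, but the second quantification gave a mean of 22.5% ± 8.5, with 24.1% in Hsp90aa1-205 alone in library 1, so its low share in library 1 was not seen there. Among all detected genes with such transcripts, the same bar was passed by 16.6% for retained introns, near the members' 17.4%, by 24.5% for nonsense-mediated decay and by 20.5% for processed transcripts.

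Hspa5 had 5.60%, 17.1% and 20.6% in Hspa5-204, annotated as a target of nonsense-mediated decay, with library 1 apart from the others in this quantification. The second quantification gave 21.3% ± 5.0 for this class, so the low share in library 1 is uncertain. The main coding transcript Hspa5-202 held 75.7% ± 5.6. Ppp1r15b had 34.4%, 41.3% and 40.9% in the processed transcript Ppp1r15b-202, but 20.3% ± 4.1 in the second quantification. Canx had 12.0%, 17.3% and 3.67% in processed transcripts, a mean of 11.0% ± 6.9 against 28.2% ± 9.0 in the second quantification. Hspa8 had 18.3% in this class in library 1 and 0.38% and 0.40% in libraries 2 and 3 (13.2% ± 14.0 in the second quantification), and its coding transcripts Hspa8-201 and Hspa8-202 held 58.9% ± 7.5 and 34.3% ± 3.9. Ppp1r15a has no annotated transcript in these noncoding classes, so none of its TPM could fall there. Its coding transcripts Ppp1r15a-201 and Ppp1r15a-203 held 62.7% ± 5.2 and 36.8% ± 5.4, but the second quantification gave 86.8% ± 7.4 and 12.3% ± 8.2. Short or partial annotated transcripts gain TPM from few reads, and where the quantifications disagree the share is uncertain.

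**Figure D4:**
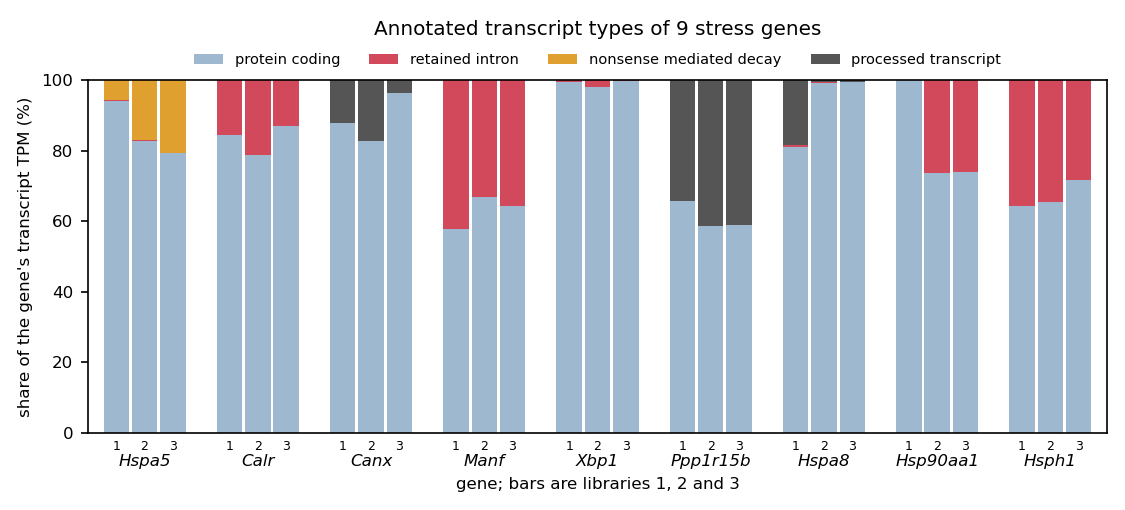
Share of each gene's transcript TPM by annotated transcript type in libraries 1, 2 and 3, for 9 stress genes; the bars of a gene sum to 100%. Manf, Hsph1 and Calr hold retained-intron shares in every library and Hsp90aa1 in libraries 2 and 3 of the quantification plotted, a contrast not seen in the second quantification, while Xbp1 is nearly all protein-coding.

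Other genes of the same pathways, taken from lists set up with earlier results of these data known, were described in the same way. Of 34 other ER stress genes 31 were detected, with a median of 14.4 TPM and 0 of 32 tested genes called. The highest were Tmbim6, an ER membrane protein that guards against cell death, at 171 ± 15.6 TPM and Vcp, the ATPase that pulls proteins out of the ER, at 69.7 ± 6.15 TPM. The lowest were Ern2, listed at 0 in each library, and Derl3 at 0.110, 0.180 and 0 TPM.

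Of 25 other integrated stress response genes 18 were detected, with a median of 3.19 TPM. Of these, 2 reached 100 TPM in every library, and 6 stayed under 1 TPM in each. Gdf15, a stress-induced hormone of the TGF-beta family, had 417, 387 and 655 TPM, and Slc3a2, a subunit of amino acid transporters, had 186, 143 and 134 TPM. The hormone gene Fgf21 and the transsulfuration gene Cth were listed at 0 in each library. By edgeR's test 1 of the 21 tested genes was called, against 203 of all 12231 tested genes (1.66%). A single call in so short a list says nothing of the list as a set. The gene was Cebpb, which encodes a partner of ATF4 and CHOP. It had 5.83, 6.62 and 6.67 log2 CPM (edgeR goodness of fit, adjusted p = 0.0243), lowest in library 1, and its call is given for the main setting only.

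Of 38 other heat shock and co-chaperone genes 32 were detected, with a median of 24.0 TPM, above that of the 9 cytosolic members, and 0 of 33 tested genes were called. Ubb, which encodes ubiquitin, had 401, 211 and 344 TPM (319 ± 97.7, SD, n = 3). The small heat shock gene Hspb8 was listed at 0 in each library, and Serpinh1, the collagen chaperone, had 0.0100, 0.0200 and 0.0100 TPM. All 8 other mitochondrial chaperones and proteases were detected, with a median of 8.66 TPM and 0 called. Hspa9, the mitochondrial Hsp70, had 42.4 ± 4.79 TPM and Hscb 15.5 ± 5.74 TPM, while Grpel1 and Clpx were lowest at 4.81 ± 0.853 and 6.32 ± 0.953 TPM.

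The second quantification deposited for each library gave lower TPM for each of the 41 genes but largely kept their order. Its values were 0.346 times the first for the median member and 0.353 times for the median detected gene. Across the 41 genes, which are not independent replicates and share the same reads, Spearman's rho between the mean levels was 0.999, and no gene moved by more than 2 ranks. The ratio was lowest for Ppp1r15a (0.275) and highest for Asns (0.446). The order of the libraries and the spread between them were not always kept. Hspa5 had 120, 92.7 and 63.3 TPM in libraries 1, 2 and 3 (92.0 ± 28.4, SD, n = 3), where the first quantification gave 241, 237 and 270.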

How the data were processed

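The members, the gene lists and the named genes were chosen with earlier results of these data known. The authors quantified each library separately (assembly mm10, annotation GENCODE M21), as labels and deposited notes state. The deposited gene and transcript tables give expected counts and TPM, and a second deposited table gives TPM from another quantification. The tools and strand setting: not given in the sources used here. Numbered and spike-in rows were left out (at most 0.365% of counts).

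Named in every library were the highest and lowest gene of each group, called genes and the main sensors, factors and chaperones. Of other pathway lists, the 2 highest, 2 lowest and called genes were named, except 1 gene that is not reported here. Expected counts were rounded and tested with edgeR 4.0.16 in R 4.3.3 (filterByExpr, TMM, trended dispersion, deviance goodness of fit, Benjamini-Hochberg over all genes, threshold 0.05; prior count 0.5 for log2 CPM). DESeq2 1.42.0 served as an alternative. Differences of medians used log2(TPM + 1). The test step was checked on simulated counts in which some genes were moved in 1 library. It called 42 of 100 genes moved 2-fold, 99 of 100 moved 4-fold and 2 of 12031 that were not moved. Python 3.11.15 did the rest, and promoters came from RefSeq. Limits from counts cover counting error only. No paired analysis was possible because there is 1 group.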

Additional observations from a re-analysis of the deposited data

How the results depend on the processing

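Leaving out 1 library in turn gave 89 to 132 genes called over all genes (main 203) and 0 to 1 members called, and DESeq2's dispersion trend and the removal of the filter on low counts gave 1 member each, in every case Ppp1r15a. Its adjusted p (edgeR goodness of fit, main 0.0542) was 9.2e-05 with DESeq2's trend, 0.0398 with no filter, and 0.0253 to 0.9996 when 1 library was left out. The median member level, taken as the mean over libraries of each library's median member (27.9 TPM), became 9.84 TPM in the second quantification and 84.9 TPM when rescaled to protein-coding genes. All 41 levels moved with both changes of scale, which for the rescaling follows from raising every gene alike. In the second quantification all 10 ratios kept their direction and stayed within 1 SD of their main mean. Rescaling to protein-coding genes cannot move a ratio.

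The ER minus ATF4 difference of medians (main 0.89) was 0.93 with a pseudocount of 0.1, 0.92 on protein-coding scale, 1.54 with ER chaperones only and 2.06 without Ppp1r15a. With detected members only, which removes Trib3 and Chac1, it was -0.0633 ± 0.268 (SD, n = 3), so its sign was not settled. ER minus heat shock (main 2.07) was 2.22 with the pseudocount of 0.1, 1.88 in the second quantification, 2.18 on protein-coding scale, 1.51 with Hspd1 and Hspe1 added, 1.73 with Hspa1a and Hspa1b summed and 2.72 with ER chaperones only. ATF4 minus heat shock (main 1.18) was 1.28, 0.97, 0.62 and 0.84 under the pseudocount, second quantification, added chaperonin and summed Hspa1 genes, 2.14 with detected members only, and 0.0101 without Ppp1r15a. Leaving out Hspa8 moved none of the 3 by more than its SD. Without 1 library they ran from 0.88 to 0.90, from 2.03 to 2.11 and from 1.14 to 1.21. At n = 3 the mean of the libraries left always lies within 1 SD of the full mean, so the SD is no bar for that setting. The removals of Ppp1r15a and Hspa8 were chosen after seeing the data. Of the member levels, depth limits only Chac1 and Trib3. The processed transcript share of Asns (10.1% ± 9.9), counted above as over 10%, rested on 3, 0 and 6 expected counts of Asns-206. For levels, ratios and transcript shares too, leaving out 1 library cannot move the mean by more than its SD, so nothing is concluded from that setting. In the second quantification 4 of 8 transcript type shares moved by more than their SD.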
